A study of Homo sapiens with 9 samples.

Results

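The comparison described here is the effect of the histone deacetylase inhibitor trichostatin A (TSA) in RKO cells, a colorectal cancer cell line, after UHRF1 had been depleted with siRNA. Its members are 4 of the 9 arrays of the series, chosen by their titles: siUHRF1 + TSA on 2 arrays against siUHRF1 on 2 arrays. Replicate 1 of both groups received siUHRF1-1 and replicate 2 received siUHRF1-2, so that each treated array has a mock array of the same siRNA. All cells were transfected with siRNA for 72 h and then kept for 24 h with 300 nM TSA or with ethanol as the drug mock. The siCONT and siCONT + TSA groups, of 2 arrays each, received a control siRNA in place of the UHRF1 siRNA under the same drug conditions. They entered the fit to share the estimate of the spread, they count in the filter on dim probes and in the choice of a gene's probe, and they are the most alike comparison. What all 8 arrays share is the RKO line and the transfection. Depletion was by transient siRNA, so the cells kept part of their UHRF1, and each UHRF1 siRNA is represented by 1 culture per drug condition. Nothing states that the arrays of a group came from independent experiments, and p-values then measure only the spread between these samples, which may be technical.

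Histone deacetylases remove acetyl groups from the tails of histones and from other proteins. Within corepressor complexes such as SIN3, NuRD and CoREST they are recruited to promoters by DNA-binding repressors and by proteins that read methylated DNA. TSA is a hydroxamic acid that binds the catalytic zinc of class I and class II deacetylases, and cells exposed to it accumulate acetylated histones within hours, with both gains and losses of transcripts. UHRF1 binds hemimethylated DNA at replication forks and brings in DNMT1, and its loss leads to passive loss of DNA methylation, so the comparison asks how cells whose methylation maintenance was impaired respond to deacetylase inhibition.

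The level of a probe is given throughout as its log2 signal minus the 75th percentile of its array, so a level of 0 is the 75th percentile and 1 unit is a doubling. The 75th percentile of the linear signal lay between 245 and 338 on the 8 arrays, well above background were 43.6% to 46.6% of its probes, and no spot was saturated. All 8 arrays shared 1 slide and 1 scan. Row 1 of the slide held all mock arrays and row 2 all TSA arrays, so row and TSA cannot be told apart. Arrays of the same group differed by a median of 0.26 on the log2 scale in siUHRF1 and 0.19 in siUHRF1 + TSA, against 0.07 and 0.08 in siCONT and siCONT + TSA. The keratin genes KRT8 and KRT18 and the intestinal transcription factor genes CDX1 and CDX2 were above background on all 8 arrays. EPCAM, CDH1, VIL1, CDH17 and LGALS4, which also mark colonic epithelium, were below background on all 4 UHRF1-depleted arrays. Of the blood and endothelial markers CD3E, HBB, PECAM1 and KDR were below background there too, whereas VWF, CDH5 and COL1A1 were detected on all 8 arrays, LUM on 7, PTPRC on 5 and CD14 on 3. Of these the endothelial VWF and the fibroblast COL1A1 rose with TSA in depleted cells, by 2.44 and 1.00 on the log2 scale (adjusted p = 0.00191 and 0.00851). On the siUHRF1 + TSA arrays alone, of all 8, the epithelial KRT19 and the fibroblast markers COL1A2 and DCN were above background, and the part that other cell types could play was not tested.

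The gene targeted by the siRNAs was itself lower with TSA. UHRF1 (probe at chr19:4962065-4962124 of hg19) had a level of 0.36 with siUHRF1-1 and 0.07 with siUHRF1-2 in mock cells, and of -0.34 and -0.62 in the matching TSA cells. Both TSA arrays lay below both mock arrays, and the fall was equal with each siRNA. The log2 fold change was -0.70 (standard error 0.05, adjusted p = 0.00307), and another, dimmer probe gave -0.52 without passing the test (adjusted p = 0.0555). The call of the first probe was lost in 2 of 21 alternatives, a normexp background correction among them. In siCONT cells the level was 2.69 on both mock arrays and 2.87 and 2.86 on the TSA arrays, all 4 far above the depleted arrays. The change there was 0.18 and did not pass the test (adjusted p = 0.0676).

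TSA altered the expression of 7939 of the 23703 probes tested in UHRF1-depleted cells, which is 33.5%, at a Benjamini-Hochberg adjusted p below 0.05 from limma with the siRNA as a block. Of these, 4778 were higher and 3161 lower. The median size of the change among them was 0.53 on the log2 scale, and 934 rose and 370 fell by over 2-fold. Counted by gene, with the probe of highest mean signal, 3829 of 17821 genes were higher (21.5%) and 2379 were lower (13.3%), and these shares are the background against which the gene lists are set. Most of the altered probes were measured in both states: 4244 of the higher and 2942 of the lower probes were above background on all 4 arrays. A further 360 of the higher probes went from below background on both siUHRF1 arrays to above it on both siUHRF1 + TSA arrays, and 137 of the lower probes went the other way. Both TSA arrays lay on 1 side of both mock arrays for 7139 of the 7939 altered probes.

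The count depends on how the spread was estimated. Without the siRNA block 3668 probes were altered, and with a normexp background correction 819. Leaving out replicate 1 of siUHRF1 or of siUHRF1 + TSA gave 4806, either siCONT array 4872 and either siCONT + TSA array 5251. The share of higher probes was 60.2% as reported, 49.6% after quantile normalization and 36.1% after scaling on the spike-in probes, which moved the median over all probes from 0.07 to -0.11. Directions of small changes are therefore relative to this median.

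Both siRNAs could be followed separately. Over the 23703 probes, the TSA effect with siUHRF1-1 and that with siUHRF1-2 had a correlation of 0.776 across probes, which are not independent replicates, and the same sign for 74.8% of them. Their median absolute difference was 0.22 on the log2 scale.

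The known targets of the drug changed little in expression. Of 10 tested genes for the zinc-dependent deacetylases, 1 rose and none fell, with a median log2 fold change of 0.14 against 0.08 over all genes. HDAC7, a class IIa enzyme, rose by 0.41 on the log2 scale. HDAC1, the catalytic subunit of SIN3, NuRD and CoREST, had levels of 4.33 and 3.98 in mock cells and 4.51 and 4.14 with TSA. Each siRNA pair was higher with TSA, and the change of 0.17 did not pass the test (adjusted p = 0.0686). HDAC2 and HDAC3 had log2 fold changes of 0.13 and -0.01, and HDAC9 did not pass the filter on dim probes, which asked for both arrays of at least 1 of the 4 groups to be well above background. The median of this list turned to -0.04 under another scaling, and HDAC7 lost its call with normexp, among other alternatives.

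The subunits that hold deacetylases in corepressor complexes moved in both directions, 6 of 32 higher and 4 lower, shares just below the background of 21.5% and 13.3% (median 0.09, and -0.09 under another scaling). MBD3, a NuRD subunit, had levels of 2.35 and 2.66 in mock cells and 3.31 and 3.39 with TSA, and both TSA arrays were above both mock arrays (log2 fold change 0.85, standard error 0.08, adjusted p = 0.00421). HMG20B, of the CoREST complex, rose by 0.55, and the demethylase of the same complex, KDM1A, by 0.51. The 4 that fell were ING2, which tethers SIN3 to methylated histone H3 (-0.68), the transducin-like subunit gene TBL1X of the NCOR complex (-0.64), ARID4B, of the SIN3 complex (-0.45), and the histone chaperone gene RBBP7 (-0.30). SIN3A and SIN3B had values of 0.12 and 0.21 and were not called. Among 7 sirtuins, the NAD-dependent deacetylases that TSA does not inhibit, the mitochondrial SIRT5 and SIRT3 fell by 0.57 and 0.30 and none rose. Of 12 acetyltransferases and bromodomain readers, KAT5 and KAT2A rose by 0.36 and 0.26 and HAT1 fell by 0.42. The calls of KAT5, KAT2A and SIRT3 were lost in 13, 14 and 14 of 21 alternatives.

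Of 12 tested genes known to respond to deacetylase inhibitors in many cell lines 6 were higher, 2 were lower and 4 were not called (median 0.32). The same counts of higher and lower genes held in siCONT cells, with a median of 0.30. DHRS2, a short-chain dehydrogenase and one of the 8 largest rises among genes above background on all 4 arrays, was measured by a probe at chr14:24114500-24114560 of hg19. Its level was -2.16 and -2.39 in mock cells and 1.95 and 1.84 with TSA. The groups were far apart compared with the gap between arrays of a group, an 18.0-fold rise (log2 fold change 4.17, standard error 0.10, adjusted p = 0.000345). TUBB3, the neuronal class III beta tubulin, went from 3.81 and 4.0 to 5.45 on both TSA arrays, a change of 1.55. The actin-severing gelsolin gene GSN rose by 1.52, from 1.96 and 2.08 to 3.64 and 3.45. CDKN1A, which encodes the CDK inhibitor p21, fell, from 0.53 and 0.77 to 0.17 and 0.30, with no overlap between the groups (log2 fold change -0.42, standard error 0.07, adjusted p = 0.0161). That call was lost with normexp, without the siRNA block and without either replicate 2 array. Of the remaining CDK inhibitor genes, CDKN1C rose by 0.99, CDKN2C and CDKN2D fell by 0.37 and 0.43, and CDKN2B rose at least 2.11-fold from below background. CDKN2B passed the filter on dim probes through the siUHRF1 + TSA arrays alone and so had to be higher there.

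**Figure D1:**
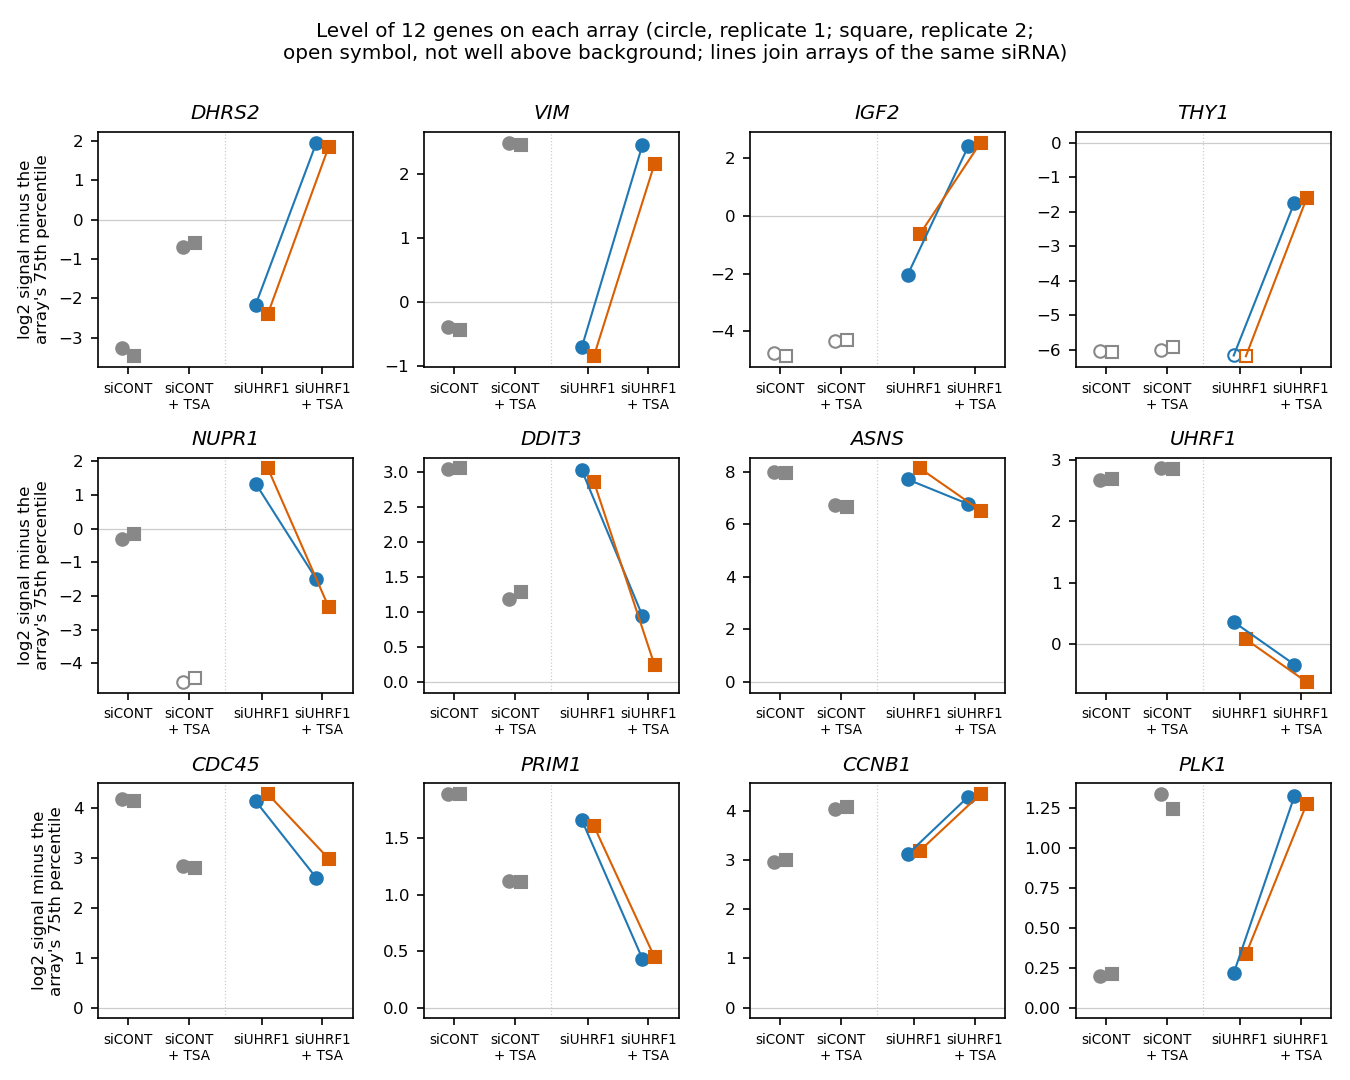
Level of 12 genes on each of the 8 arrays, as log2 signal minus the 75th percentile of the array, with a separate vertical scale for each gene. Circles are replicate 1 and squares replicate 2, open symbols are not well above background, grey symbols are siCONT cells, and blue (siUHRF1-1) and orange (siUHRF1-2) lines join the mock and TSA arrays of the same siRNA. For all 12 genes both siUHRF1 + TSA arrays lie on 1 side of both siUHRF1 arrays, with DHRS2 the widest apart of the genes measured on all 8 arrays (log2 fold change 4.17).

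The remaining large rises among genes measured in both states were of unlike function. HBA2, an alpha globin gene whose probes cannot be relied on to separate it from HBA1, had levels of -0.05 and 0.59 in mock cells and 4.10 and 4.48 with TSA (log2 fold change 4.02). IGF2, the imprinted insulin-like growth factor gene, had levels of -2.03 and -0.62 in mock cells and 2.44 and 2.55 with TSA. The mock arrays differed from each other by more than the TSA arrays, and the groups were still well apart (log2 fold change 3.82, standard error 0.30, adjusted p = 0.00314). S100A10, a partner of annexin A2, rose by 3.40, and ACOX2, a peroxisomal oxidase of bile acid intermediates, by 3.26. VIM, which encodes the intermediate filament protein vimentin of mesenchymal cells, went from -0.71 and -0.85 to 2.45 and 2.16, an 8.47-fold rise (standard error 0.07 on the log2 scale, adjusted p = 0.000329).

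Several germline genes of the X chromosome stood among these rises. SPANXB2, of a sperm protein family with near-identical copies, had levels of -3.12 and -2.53 in mock cells and 3.46 and 2.69 with TSA, the largest log2 fold change of the named genes at 5.90. XAGE1A and VCX2, also from multicopy families, rose by 3.76 and 3.51. For VCX2 (probe at chrX:8138102-8138161 of hg19) the mock levels were -0.85 and -0.24 and the TSA levels 2.68 and 3.25. In the list of cancer-testis genes, which encode proteins made mainly in germ cells and in tumours, 16 of the 17 tested genes rose and none fell, and 13 more did not pass the filter. Of the 17, 10 passed the filter through the siUHRF1 + TSA arrays alone and so had to be higher there, and 9 of these rose, as did all 7 that passed through another group. Among probes above background on all 8 arrays 2 of the 17 could be tested. As the list was taken up with earlier results of these samples in view, its count is not independent evidence of its direction. MAGEB2 was the exception, with a log2 fold change of 2.61 (adjusted p = 0.059). With normexp 8 of the 17 were called.

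For genes that went from below background to above it, only a lower limit of the rise can be given, because the dim signals carry no order. TM4SF1, a tetraspanin-like membrane protein gene, rose at least 12-fold, from -5.16 and -4.17 to -0.59 and -0.93. ARHGDIB, a regulator of small GTPases in blood cells, rose at least 10.0-fold and HLA-DPB1, an MHC class II chain gene, at least 9.57-fold. The limit was 9.21 for AKR1C1, a ketosteroid reductase, and 8.83 for ASB9, a substrate receptor of a ubiquitin ligase. In each of these 5 genes both mock arrays were below background and both TSA arrays well above it. TFF3, the trefoil peptide gene of goblet cells, rose at least 5.61-fold and KRT19 at least 4.69-fold. Both TFF3 and KRT19 passed the filter through the siUHRF1 + TSA arrays alone and so had to be higher there. Genes lost from detection were INHBE, an activin subunit gene, which fell at least 8.74-fold, DDR2, a collagen receptor kinase gene (at least 5.04-fold), AKNA (at least 3.05-fold), and the olfactory receptor loci OR2A20P and OR2A42 (at least 5.84-fold and 3.75-fold). The falls of INHBE, DDR2, AKNA, OR2A20P and OR2A42 lost their calls with normexp.

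Of the largest falls among genes measured in both states, IL20RB, a cytokine receptor chain gene, had levels of 0.03 and 0.87 in mock cells and -3.73 and -3.31 with TSA (log2 fold change -3.97, standard error 0.25, adjusted p = 0.00236). The calcium channel gene TRPV6 fell by 2.48, a call that was lost when any 1 of the 4 depleted arrays was left out, and the pseudogene OR2A9P, which lies in a multicopy family, fell by 2.16. The other 5 of the 8 largest falls were NUPR1, DDIT4, DDIT3, CTH and TUBE1.

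The list with the lowest median was that of the amino acid response and the unfolded protein response, programs in which the transcription factor ATF4, translated when eIF2alpha is phosphorylated, raises amino acid transporters, synthetases and stress regulators. Of 28 tested genes 22 fell and none rose (background 13.3% lower), with a median log2 fold change of -0.88 and a range from -3.48 to 0.08. NUPR1, a small chromatin-binding stress protein gene (probe at chr16:28548821-28548880 of hg19), had levels of 1.34 and 1.79 in mock cells and -1.51 and -2.32 with TSA. Both TSA arrays were far below the lower mock array, an 11.2-fold fall (log2 fold change -3.48, standard error 0.30, adjusted p = 0.00365). DDIT4, an inhibitor of mTORC1 signalling, went from 3.32 and 3.70 to 1.5 and 0.77 (log2 fold change -2.37). DDIT3, which encodes the pro-apoptotic factor CHOP, went from 3.03 and 2.87 to 0.95 and 0.24 (log2 fold change -2.36, standard error 0.14, adjusted p = 0.00218). For both genes siUHRF1-2 gave the lower TSA level.

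The metabolic members of the program fell together with its regulators. SLC7A11, the cystine transporter gene, had levels of 3.83 and 3.74 in mock cells and 2.11 and 1.76 with TSA (log2 fold change -1.85, standard error 0.08, adjusted p = 0.00133), and the large neutral amino acid transporter gene SLC7A5 fell by 0.94. ASNS, which encodes asparagine synthetase, went from 7.71 and 8.14 to 6.77 and 6.53 (log2 fold change -1.27). Of the serine synthesis genes, PHGDH fell by 1.06, PSAT1 by 1.09 and PSPH by 0.45. CTH, the cystathionine gamma-lyase gene of cysteine synthesis, lies outside the list and was among the 8 largest falls, from 4.53 and 4.35 to 2.55 and 1.89. The pseudokinase gene TRIB3 fell by 1.85, the glutathione-degrading CHAC1 by 1.45 and ATF3 by 1.51, although another probe for ATF3 gave 0.16. ATF4 itself went from 7.58 and 7.90 to 7.33 and 7.09, a small change that passed the test (log2 fold change -0.53, adjusted p = 0.0415). The 6 members that were not called were chaperones and secretory pathway proteins of the endoplasmic reticulum: HSPA5, HSP90B1, PDIA4, SDF2L1 and MANF had values between -0.23 and -0.05, and CRELD2 had 0.08.

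The fall was seen with both siRNAs. All but 1 of the 28 genes were lower with TSA for each siRNA, and 25 of 28 had the more negative value with siUHRF1-2, for which the median was -1.05 against -0.78 with siUHRF1-1. With normexp 16 genes fell, without the siRNA block 18, and with only the 4 depleted arrays and no block, 5. In siCONT cells 23 of the 28 fell (background 11% lower) and the median was -0.76.

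The promoters of 26 of the 30 listed genes were in the RefSeq table used for sequences (build GRCh38.p14), and the 250 bases before the gene's start were searched on both strands for TGATGNAA, a core of the composite site that C/EBP and ATF factors bind. It was found in 4 of 26 (15.4%), against 3.19% of 27305 promoters in the table. The 4 genes were ATF3, ASNS, HERPUD1 and CHAC1, all of which fell. Of the 26 genes 18 fell and 6 were tested and not called, so most matches had to lie among genes that fell. The 2 of lowest p are shown because they place the match relative to the start, 191 and 68 bases before it. ATF3 lies at chr1:212565157-212565406 on the plus strand and ASNS at chr7:97872409-97872658 on the minus strand, and capitals mark the match.
ATF3: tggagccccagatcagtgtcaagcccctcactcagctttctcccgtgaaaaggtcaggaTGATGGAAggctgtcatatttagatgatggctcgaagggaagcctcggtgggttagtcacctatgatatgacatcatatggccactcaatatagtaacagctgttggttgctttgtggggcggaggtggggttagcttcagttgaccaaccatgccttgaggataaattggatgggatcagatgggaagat
ASNS: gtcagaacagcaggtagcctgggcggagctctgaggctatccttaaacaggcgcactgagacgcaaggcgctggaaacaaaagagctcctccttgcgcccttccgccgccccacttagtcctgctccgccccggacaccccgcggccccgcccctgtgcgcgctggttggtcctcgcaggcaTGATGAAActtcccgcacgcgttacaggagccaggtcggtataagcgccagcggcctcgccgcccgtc
A match describes the letters in this window and not the binding of a factor.

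Most DNA replication genes fell. Of 39 tested genes for origin licensing, the replicative helicase, the polymerases and chromatin assembly, 33 fell and none rose, with a median log2 fold change of -0.65. PRIM1, the catalytic subunit of the primase, had levels of 1.66 and 1.61 in mock cells and 0.43 and 0.45 with TSA. The arrays within each group were close together, and the fall was 2.29-fold (log2 fold change -1.19, standard error 0.06, adjusted p = 0.00149). CDC45, a subunit of the active helicase, went from 4.14 and 4.29 to 2.60 and 2.99 (log2 fold change -1.42). MCM6, of the helicase ring, went from 3.51 and 3.75 to 2.58 and 2.83 (-0.93) and the licensing factor gene CDT1 from 4.22 and 4.58 to 3.36 and 3.67 (-0.88). Both MCM6 and CDT1 kept the order of the siRNAs, the siUHRF1-2 array being the higher in mock and in TSA cells. The sliding clamp gene PCNA fell by 0.61 and POLA1, of polymerase alpha, by 0.98. The 6 genes not called were TIPIN, GINS1, GINS3, GINS4, RPA2 and RPA3, with values between -0.26 and 0.15.

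Here the siRNAs ranked the other way. Of the 39 genes 37 were lower with TSA for both siRNAs, and 35 had the more negative value with siUHRF1-1, with a median of -0.76 against -0.54 for siUHRF1-2. The median stayed between -0.82 and -0.65 under the scalings tried. With normexp 13 genes fell, without the siRNA block 23, with only the 4 depleted arrays 12, and with those and no block 2. In siCONT cells 27 fell and 1 rose.

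Genes that act beside the fork fell as well. Of 10 genes for deoxynucleotide synthesis 8 fell and none rose (median -0.55), among them RRM2 and RRM1, the subunits of ribonucleotide reductase (-1.06 and -0.47), DUT, which degrades dUTP (-0.76), TYMS, the thymidylate synthase gene (-0.67), and TK1, the thymidine kinase gene (-0.39). DTYMK and DCTPP1 had -0.18 and 0.22 and were not called. With normexp 1 gene of the list was called lower, and without the block 2. Of 22 genes for homologous recombination and the Fanconi pathway 17 fell and none rose (median -0.57). BRCA1 had levels of 0.79 and 0.96 in mock cells and -0.95 and -0.43 with TSA, a 2.95-fold fall with no overlap (log2 fold change -1.56, standard error 0.10, adjusted p = 0.00236). RMI2, which stabilises the BLM complex, fell by 1.36, the strand-exchange motor gene RAD54L by 1.16 and FANCI, of the complex that is monoubiquitinated at cross-links, by 0.78. Of those not called, FANCA, XRCC3, UBE2T and FANCL had values between -0.39 and 0.08. With normexp 6 genes of this list fell and without the block 10. In siCONT cells 14 of the 22 fell and none rose, with a median of -0.605.

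The promoters of 32 of the 39 replication genes were in the table, and 10 of them (31.2%) held TTTCCCGC or TTTGGCGC, 2 cores of the E2F site, in the 250 bases before the start on either strand, against 1.96% of all promoters. All 10 were among the genes that fell: MCM6, CDT1, POLA1, LIG1, PCNA, GINS2, POLE, MCM3, MCM7 and RFC3. As 29 of the 32 fell and only 3 were not called, a match could hardly lie elsewhere. None of the 26 promoters of the amino acid response list held either core, and 2 of 31 mitotic promoters did. The 2 of lowest p are shown with that of UHRF1, whose promoter holds the same letters. UHRF1 fell with the replication genes in depleted cells, a call lost with normexp. In siCONT cells 27 of the 39 replication genes fell, while UHRF1 had a change of 0.18 that was not called. For UHRF1 the difference between the TSA effects in depleted and siCONT cells kept its call in 5 of 19 alternatives. Its dimmer probe did not pass that test (limma adjusted p = 0.498). Whether these letters bear on any of the falls was not tested. MCM6 lies at chr2:135876444-135876693 on the minus strand, with matches 152 and 90 bases before the start. CDT1 lies at chr16:88803539-88803788 on the plus strand, with a match 35 bases before it, and UHRF1 at chr19:4909251-4909500 on the plus strand, with a match 14 bases before it.
MCM6: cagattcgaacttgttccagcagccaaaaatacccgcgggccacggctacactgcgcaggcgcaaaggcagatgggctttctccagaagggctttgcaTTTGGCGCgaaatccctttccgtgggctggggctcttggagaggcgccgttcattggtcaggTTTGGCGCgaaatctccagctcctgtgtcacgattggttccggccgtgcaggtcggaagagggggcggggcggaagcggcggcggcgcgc
CDT1: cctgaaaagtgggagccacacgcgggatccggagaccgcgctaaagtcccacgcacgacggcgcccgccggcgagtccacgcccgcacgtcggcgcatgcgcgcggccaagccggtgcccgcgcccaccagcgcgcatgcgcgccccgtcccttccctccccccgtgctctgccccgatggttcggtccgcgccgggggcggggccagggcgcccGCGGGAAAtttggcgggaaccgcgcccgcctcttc
UHRF1: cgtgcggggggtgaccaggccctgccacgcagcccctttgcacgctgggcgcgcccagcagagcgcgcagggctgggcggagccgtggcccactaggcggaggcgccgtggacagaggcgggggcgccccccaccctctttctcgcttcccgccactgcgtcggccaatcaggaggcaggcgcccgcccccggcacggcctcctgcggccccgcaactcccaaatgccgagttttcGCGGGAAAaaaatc
Their CG dinucleotides number 24, 42 and 28.

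Mitotic genes went the opposite way. Of 36 tested genes for the spindle, the kinetochore and cytokinesis 19 rose and 2 fell (background 21.5% and 13.3%), with a median log2 fold change of 0.30. CCNB1, which encodes cyclin B1, the activator of CDK1 at mitotic entry, was measured by a probe at chr5:68471363-68473123 of hg19. Its level was 3.12 and 3.19 in mock cells and 4.29 and 4.34 with TSA, a 2.24-fold rise (log2 fold change 1.16, standard error 0.06, adjusted p = 0.00151). PLK1, the polo-like kinase gene, went from 0.22 and 0.33 to 1.33 and 1.28 (1.03). For both genes the 2 arrays of a group were close together and the groups did not overlap. The securin gene PTTG1 rose by 0.74 and CENPF, of the kinetochore corona, by 0.67. The 2 that fell were ANLN, which scaffolds the contractile ring (-0.56), and NDC80, of the microtubule attachment complex (-0.23). Of those not called, AURKB had -0.19, BUB1B 0.15 and CDK1 0.20. The list's median was 0.12 at its lowest under another scaling, which kept its sign, but with normexp only CCNB1 and PLK1 were called. Without the siRNA block 14 rose, with only the 4 depleted arrays in the fit 3, and with both changes 1. In siCONT cells 22 of the 36 rose and none fell (background 18.8% and 11%), with a median of 0.41.

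The 250 bases before the start held TTTGAA, the core of the cell cycle genes homology region, on either strand in 18 of 31 mitotic promoters of the table (58.1%), against 13.6% of all promoters and none of the 32 replication promoters. It was held by 9 of 18 called genes and by 9 of 13 genes not called. The 2 called genes of lowest p with a match are PLK1, at chr16:23678639-23678888 on the plus strand with a match 29 bases before the start, and DLGAP5, a spindle protein gene that rose by 0.68, at chr14:55191586-55191835 on the minus strand with matches 138 and 109 bases before it. They are shown for comparison with the replication promoters above.
PLK1: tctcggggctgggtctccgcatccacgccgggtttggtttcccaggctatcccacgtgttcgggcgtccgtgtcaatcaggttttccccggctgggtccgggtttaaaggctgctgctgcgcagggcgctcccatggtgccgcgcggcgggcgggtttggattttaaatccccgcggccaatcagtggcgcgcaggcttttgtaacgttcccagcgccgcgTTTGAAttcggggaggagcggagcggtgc
DLGAP5: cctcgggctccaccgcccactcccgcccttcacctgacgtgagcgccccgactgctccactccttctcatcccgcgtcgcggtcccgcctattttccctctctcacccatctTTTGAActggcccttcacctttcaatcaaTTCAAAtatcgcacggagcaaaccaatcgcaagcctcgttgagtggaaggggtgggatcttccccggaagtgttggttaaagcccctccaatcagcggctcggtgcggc

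**Figure D2:**
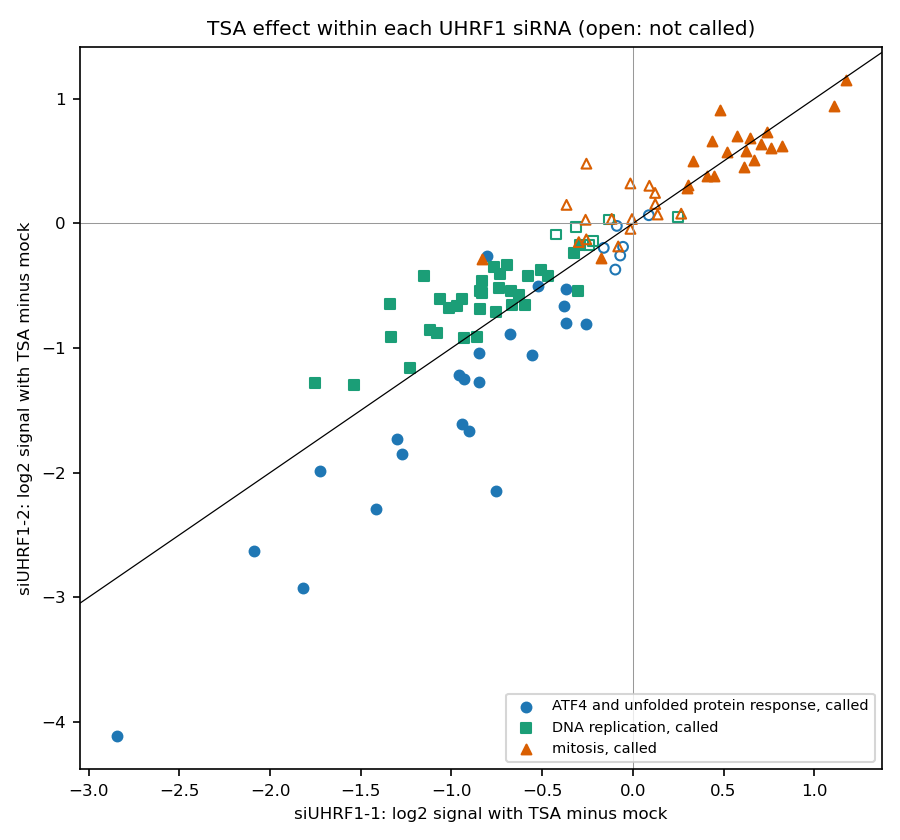
TSA effect with siUHRF1-1 (horizontal axis) and with siUHRF1-2 (vertical axis) for each tested gene of 3 lists, as the difference in log2 level between the TSA and mock arrays of that siRNA. Filled symbols were called in the fit over both siRNAs and open ones were not, and the line marks equal effects. Blue circles (amino acid and unfolded protein response) lie mostly below the line and green squares (DNA replication) mostly above it, while orange triangles (mitosis) lie around it.

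The upstream regulators of S phase fell in part. Of 24 cyclins, CDKs, E2F factors and RB proteins 5 rose and 11 fell (median -0.25). E2F1 went from 0.84 and 1.49 to -0.21 and 0.74, a fall in each siRNA pair (log2 fold change -0.90, adjusted p = 0.00446) that was lost without the siRNA block. CCNE2, the E-type cyclin gene, fell by 1.39 and the pocket protein gene RBL1 by 0.68, whereas the 5 that rose were CCNB1, E2F3 (0.50), CCNB2 (0.41) and the phosphatase genes CDC25B and CDC25C (0.41 and 0.25). CCND1 and CCND2 had values of 0.33 and 0.16 and were not called.

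PLK2, a polo-like kinase gene, rose by 1.58, with levels of 0.73 and -0.06 in mock cells and 2.22 and 1.61 with TSA. SESN2, which senses leucine for mTORC1 and is also in the amino acid response list, went from 1.88 and 1.64 to 0.61 and -0.21 (log2 fold change -1.56), and the secreted GDF15 fell by 1.58. Within the BCL2 family, where 3 of 16 genes rose and 6 fell, the BH3-only genes PMAIP1 and BBC3 fell by 1.16 and 0.74, and the effector genes BAK1 and BOK and the BH3-only gene BIK rose by 0.66, 0.27 and 0.59. BAX had -0.11 and was not called.

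Genes that handle DNA methylation changed little apart from UHRF1. Of 13 tested, 3 rose and 1 fell (median -0.05). TET1, which oxidises methylcytosine, had levels of -4.08 and -3.40 in mock cells and -2.49 and -2.14 with TSA, so both TSA arrays were above both mock arrays (log2 fold change 1.43, adjusted p = 0.00265, lost with normexp). MBD3 was given above and MBD1 rose by 0.27, a call lost in 15 of 21 alternatives. DNMT1 had levels of 2.08 and 2.10 and then 1.98 and 2.05 (-0.08), and UHRF2 had a value of -0.26. Neither was called.

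Of 17 genes that the study followed as silenced by methylation, 8 could be tested, and 4 of them rose and 1 fell. The list was chosen by the study, so its count is not independent evidence of a direction. Besides IGF2, DKK1, a secreted inhibitor of WNT signalling, went from -0.17 and -0.74 to 1.5 and 0.15 (log2 fold change 1.28), SOCS1, which restrains cytokine receptors, rose by 0.77, and RUNX3, a transcription factor gene, rose at least 2.02-fold from below background. GATA4 fell by 0.47. CDKN2A had 0.56 and was not called (adjusted p = 0.0865). CRABP1 and NEURL1 had 0.20 and 0.01 and were not called either. SFRP1, SFRP2, SFRP5, GATA5, TIMP3, UCHL1, NEUROG1 and CACNA1G did not pass the filter. In siCONT cells the median of the 8 was -0.05, against 0.66 in depleted cells. None of the 8 passed the test of the difference between the effects (adjusted p = 0.0919 for IGF2). Of the 4 that rose in depleted cells 1 passed the filter through the siUHRF1 + TSA arrays alone. With normexp 2 of the 8 were called higher.

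Among cytoskeletal genes, of 13 tubulin genes 7 rose and 1 fell (median 0.36). Besides TUBB3, TUBB6 went from 2.87 and 3.18 to 4.27 and 4.22 (1.22) and TUBB4B from 4.48 and 4.44 to 5.54 and 5.29 (0.96). The exception was TUBE1, the centriolar epsilon tubulin gene, which was among the 8 largest falls: 3.12 and 2.96 in mock cells against 1.28 and 0.96 with TSA (log2 fold change -1.92, standard error 0.07, adjusted p = 0.00107). In siCONT cells 10 of the 13 tubulin genes rose and 1 fell (median 0.43). Of 13 tested epithelial and mesenchymal markers 7 rose and 1 fell in depleted cells (median 0.48). Of the 13, 2 passed the filter through the siUHRF1 + TSA arrays alone and rose, as did 5 of the other 11. Genes of both kinds were among the 7, the mesenchymal VIM and TGFBI, an extracellular matrix protein gene that rose by 2.62, and the epithelial KRT8, KRT18, KRT19, CLDN4 and ESRP2, a splicing factor gene that rose by 0.61. OCLN, of tight junctions, fell by 0.68.

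Metal-binding and stress proteins were also higher. Of 10 metallothionein genes, whose products bind zinc and copper and whose near-identical copies share sequence, 8 rose (median 0.58). MT1X went from 5.51 and 5.33 to 6.45 and 6.06 (0.84), MT1F rose by 0.71, and MT1G rose at least 2.55-fold from below background. MT1G passed the filter through the siUHRF1 + TSA arrays alone and so had to be higher there. All 8 calls were lost with normexp, where the median was 0.55. Of 18 heat shock genes 9 rose and 1 fell (median 0.31), among them HSPB8, a small heat shock protein gene (2.42), HSPH1, a nucleotide exchange factor gene (0.64), HSPA1B, the inducible HSP70 gene (0.58), and DNAJB1, its cochaperone gene (0.51). HSPD1, the mitochondrial chaperonin gene, fell by 0.25, and HSPB1 and HSPA8 had 0.02 and 0.34 and were not called. Of the 18, 3 passed the filter through the siUHRF1 + TSA arrays alone and so had to be higher there. All 3 rose, as did 6 of the other 15. All 10 calls were lost with normexp, where the median was 0.26. Of 8 aldo-keto reductase genes 4 rose (median 1.12), including AKR1C3, a prostaglandin and ketosteroid reductase gene, from -2.52 and -2.15 to 0.48 and -0.09 (2.53). AKR1B10 differed between the siRNAs, with -4.86, which is not well above background, and -2.69 in mock cells and -3.38 and -0.51 with TSA, so that the groups overlapped although both pairs moved the same way (1.83). Its call was lost without the siRNA block. AKR1B1 rose by 1.09, a call lost in 13 of 21 alternatives, and AKR1C1 was given above. In siCONT cells 5 of the 8 aldo-keto reductase genes rose and none fell, with a median of 1.90.

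Of 9 tested TIMP and matrix metalloproteinase genes 6 rose and none fell. TIMP2, a metalloproteinase inhibitor gene, had levels of -1.60 and -0.83 in mock cells and 0.54 and 0.99 with TSA (1.98, standard error 0.10, adjusted p = 0.00179), and TIMP1 rose by 0.53. The collagenase gene MMP1 rose at least 1.71-fold and the gelatinase gene MMP9 by 0.39, a call lost for MMP9 in 9 of 21 alternatives. MMP1 passed the filter through the siUHRF1 + TSA arrays alone and so had to be higher there. The remaining members of the 6 were MMP11 and MMP17 (0.30 and 0.43). Only 1 of the 9 was called higher with normexp, 2 with only the 4 depleted arrays in the fit, and none with those and no block. Of 27 interferon-stimulated and antigen presentation genes 10 rose and 4 fell, with a median of 0.15 that turned to -0.02 under another scaling. IFI6, a mitochondrial antiviral protein gene, went from 0.41 and 0.57 to 2.41 and 2.44 (1.93, adjusted p = 0.000761) and IFI27 rose by 2.69. The RNA sensor gene IFIH1 fell by 0.77, the peptide transporter genes TAP1 and TAP2 by 0.31 and 0.39 and the peptide loading gene TAPBP by 0.34. HLA-C and B2M had values of 0.17 and -0.07 and were not called.

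Lists of metabolic genes moved in both directions. CA9, the carbonic anhydrase gene induced by HIF1, went from 0.42 and 0.23 to -1.30 and -1.38 (log2 fold change -1.67, standard error 0.07, adjusted p = 0.00133), ANKRD37 fell by 1.44, VEGFA by 1.02 and PDK1, which inhibits pyruvate dehydrogenase, by 0.94. Glycolytic enzymes of the same list, GAPDH, LDHA, ALDOA, TPI1, PGK1 and ENO1, had values between -0.15 and 0.09 and were not called. In all 10 of 27 fell and 3 rose (median -0.15), the 3 being BNIP3, a mitophagy receptor gene (2.76), the pyruvate kinase gene PKM (0.34) and the glucose transporter gene SLC2A3 (0.32). Of 29 genes for cholesterol and fatty acid synthesis 5 rose and 9 fell (median -0.10). NSDHL and PMVK, enzymes of late and early sterol synthesis, rose by 0.71 and 0.77, and the fatty acid synthase gene FASN and SREBF1 by 0.44 and 0.34. EBP and HSD17B7 fell by 0.42 and 0.60 and the transcription factor gene SREBF2 by 0.51. HMGCS1, SQLE and INSIG1, all SREBP targets, had values between -0.11 and 0.02 in depleted cells and between 0.46 and 0.63 in siCONT cells, and none passed the test of the difference. All 14 calls were lost with normexp, where the median was -0.06.

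Of 24 genes of the MYC network and ribosome biogenesis 10 rose and 3 fell, with a median of 0.17 that turned to -0.01 under another scaling. MXD1, an antagonist of MYC, went from 2.23 and 1.92 to 0.53 and 0.27 (log2 fold change -1.67, standard error 0.06, adjusted p = 0.00107) and MYC and MYCL fell by 0.42 and 0.33. The ribosome assembly genes RRS1 and NOP16 rose by 1.16 and 0.66. Of 23 immediate early genes 3 rose and 6 fell, with EGR1 at -0.66 and KLF4 at -0.96, and the 3 that rose were FOSL2, IER3 and DUSP5 (0.41, 0.36 and 0.23). Among 17 histone genes 4 rose and 5 fell, and the median of 0.04 turned to -0.14 under another scaling. The 4 were H2AJ, H1-2, H2BC12 and H3-3A (1.26, 1.00, 0.51 and 0.44) and H2AC6, MACROH2A2, H1-10 and MACROH2A1 were among the 5 (-0.72, -0.51, -0.33 and -0.27). Of 10 tested neuronal genes 4 rose and none fell, and 21 more did not pass the filter. Besides TUBB3, the secreted peptide precursor gene VGF rose by 1.82, the syntaxin gene STX1A by 0.67 and the neurofilament gene NEFH at least 2.90-fold. NEFH passed the filter through the siUHRF1 + TSA arrays alone and so had to be higher there. The call of STX1A was lost in 11 of 21 alternatives. Of 8 tested intestinal differentiation genes CA2 and KLF5 fell by 0.83 and 0.63, TFF3 rose, and 12 more did not pass the filter. Of 5 tested globin genes HBA2, HBQ1, HBG1 and HBM rose (4.02, 1.00, 0.87 and 0.74). HBQ1 lost its call in 10 of 21 alternatives and HBM in 12 of 20, and with normexp 1 of the 5 was called. Of the usual reference genes, GAPDH had a value of 0.09 and ACTB rose by 0.40 by 1 probe, while another ACTB probe gave -0.03.

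**Figure D3:**
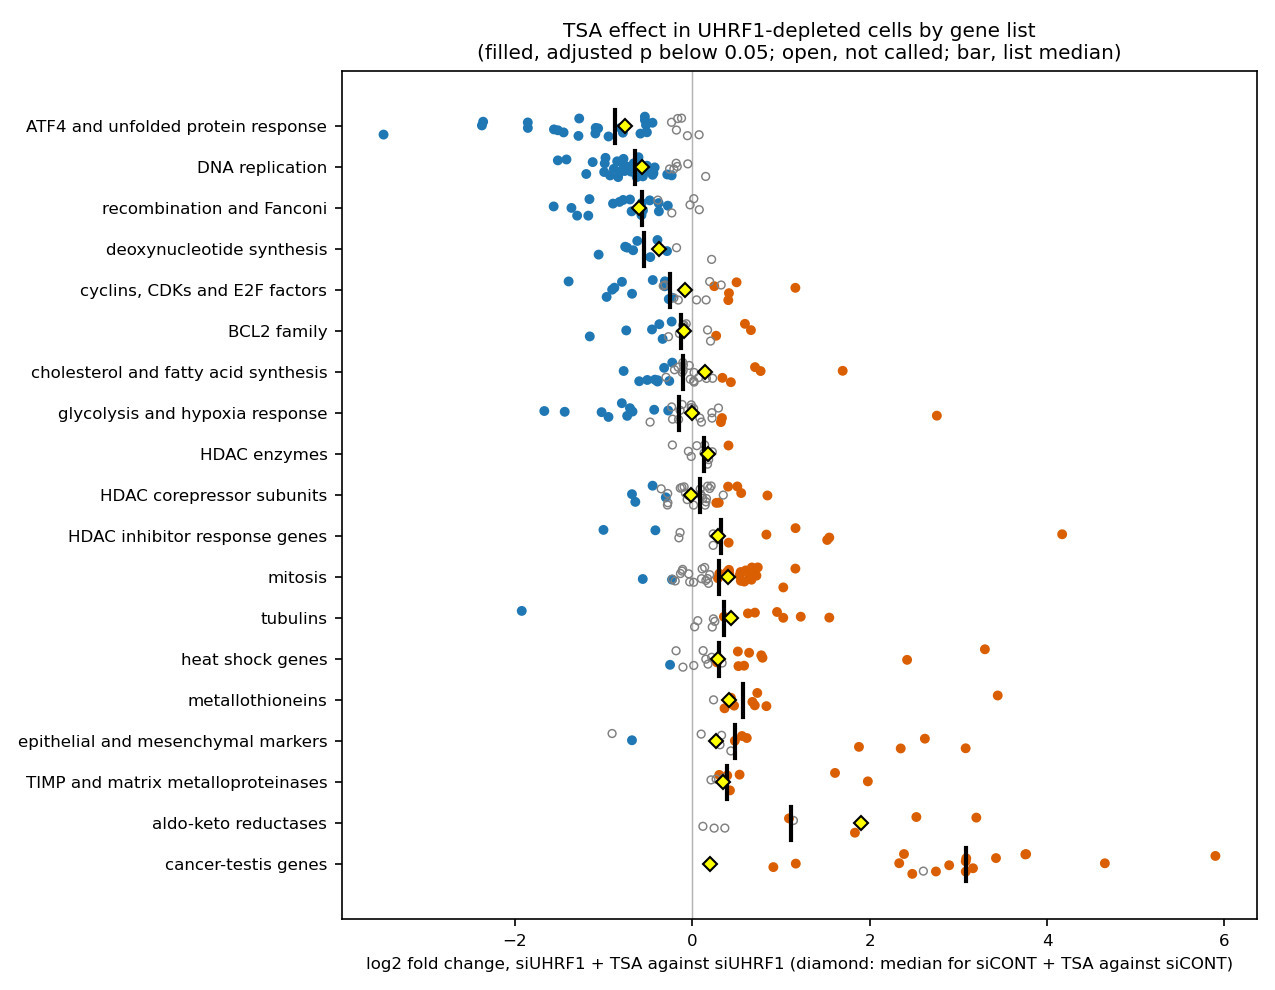
Log2 fold change of siUHRF1 + TSA against siUHRF1 for every tested gene of 19 lists. Filled points passed an adjusted p of 0.05 (orange higher, blue lower), open points did not, black bars are list medians and yellow diamonds the list medians of siCONT + TSA against siCONT. Amino acid response and DNA replication genes lie almost wholly to the left of 0. Of the 17 cancer-testis genes plotted 10 passed the filter through the siUHRF1 + TSA arrays alone, so the bar of that list, at 3.08, is set in part by the filter.

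The same drug in siCONT cells altered 6751 probes, 28.5% of those tested, with 4141 higher and 2610 lower. By gene 18.8% were higher and 11% lower. The count rests on all 4 arrays, as 518 and 425 probes were called without siCONT replicate 1 and 2, and 1063 and 1153 without siCONT + TSA replicate 1 and 2. Of the probes altered in depleted cells 63.0% were altered in the same direction in siCONT cells, and of those altered in siCONT cells 74.1% were altered in the same direction in depleted cells. Only 20 probes were altered in opposite directions, and the remaining probes were called in 1 of the 2 comparisons alone. Over all 23703 probes the effects had the same sign for 81.3%, with a correlation of 0.684 across probes, and of 0.834 over the 20754 probes above background on all 8 arrays. The SD of the effects over probes was 1.24 times as large in depleted as in siCONT cells, whereas the arrays of the depleted groups also differed more among themselves.

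The test of the difference between the effects called 110 probes, 0.464% of those tested, or 0.471% of genes. Of these, 103 had the more positive effect in depleted cells and 7 the more negative. At an unadjusted p below 0.05 there were 2489. Without siCONT replicate 1 or 2 there were 23 calls, without siCONT + TSA replicate 1 or 2 there were 24 and 21, and without replicate 2 of siUHRF1 or siUHRF1 + TSA there were 174. The 103 were mostly genes detected nowhere in siCONT cells: 89 were below background on all 4 siCONT and siCONT + TSA arrays, 75 of the 103 were below background on both siUHRF1 arrays, and 74 on all 6 of these. For such genes the size of the difference depends on how dim spots are given a value. The 74 passed the filter through the siUHRF1 + TSA arrays alone and so had to be higher there. With normexp no difference was called (259 at an unadjusted p below 0.05), and when only probes above background on all 8 arrays were tested 1 remained, VCX2. In siCONT cells VCX2 had levels of -2.43 and -2.53 in mock cells and -1.58 and -1.77 with TSA, so TSA raised it by 0.81 there and by 3.51 in depleted cells (difference 2.70, adjusted p = 0.00738).

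THY1, a glycoprotein gene of fibroblasts, neurons and thymocytes, shows the usual pattern. It was below background on 6 of the 8 arrays, with levels between -6.19 and -5.92, and well above it with TSA in depleted cells, at -1.74 and -1.62. The rise in depleted cells was at least 6.95-fold, and the difference between the effects had an adjusted p of 0.00345. THY1 passed the filter through the siUHRF1 + TSA arrays alone and so had to be higher there. That p-value is therefore not independent evidence of the direction. COL1A2, a type I collagen chain gene, rose at least 4.52-fold, the calcium-binding S100A16 at least 3.63-fold, the germline antigen genes PAGE1, MAGEA10, MAGEC2 and SSX1 at least 6.31-fold, 3.63-fold, 2.25-fold and 1.77-fold, and HSPA1A at least 2.38-fold, all from below background on the other 6 arrays. They too passed the filter through the siUHRF1 + TSA arrays alone. DHRS2 was detected on all 8 arrays and rose more in depleted cells, by 4.17 against 2.71 (difference 1.46, adjusted p = 0.0364), with levels in siCONT cells of -3.26 and -3.47 and, with TSA, -0.70 and -0.60. That difference kept its call in 5 of 19 alternatives and lost it when any 1 of the 8 arrays was left out and with quantile, spike-in or normexp processing. TIMP2 was below background on all 4 siCONT arrays. Of the 7 with the more negative effect, GLIPR1 rose by 1.81 in depleted cells, from -3.43 and -3.68 to -1.76 and -1.72, and at least 5.79-fold in siCONT cells, where it ended at the like levels of -1.81 and -1.76. GDAP1L1 fell at least 1.3-fold in depleted cells, UHRF1 was given above, and GLB1L was not called in depleted cells (-0.20) and rose at least 1.95-fold in siCONT cells.

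**Figure D4:**
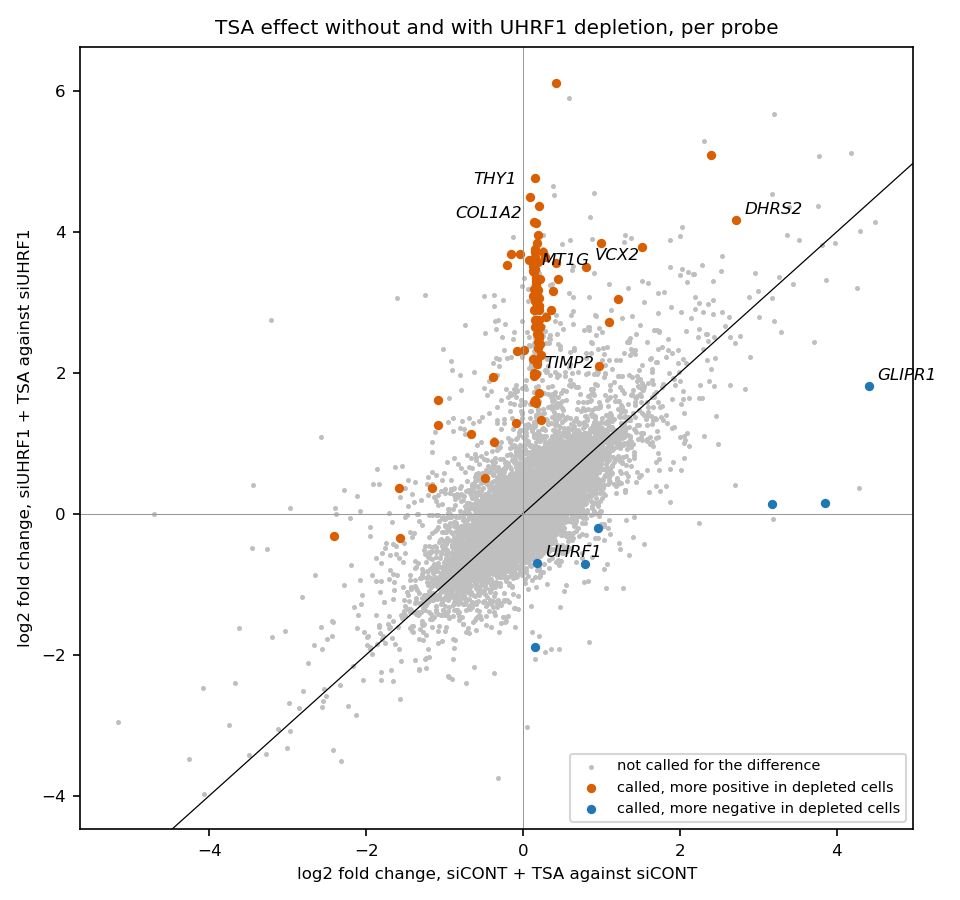
Log2 fold change with TSA for each of the 23703 probes, in siCONT cells (horizontal axis) and in UHRF1-depleted cells (vertical axis), with the line of equal effects. Grey points were not called for the difference, 103 orange points had the more positive effect in depleted cells and 7 blue points the more negative. Most orange points stand near 0 on the horizontal axis, where the gene was below background with and without TSA, and their heights depend on the values that dim spots are given.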

How the data were processed

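Total RNA of RKO cells was hybridised to 1-colour Agilent SurePrint G3 human arrays and read out by Feature Extraction (version 10.7 per the labels). The authors deposited 1 scanner file per array with the processed signal intensity of each spot after background subtraction, and a table of the same processed signals rounded, on a linear intensity scale with no normalization between arrays found, used here only as an alternative. Of 62976 spots, 4259 control spots and 239 to 316 outlier spots per array were left out, and spots of a probe were averaged. The log2 of the processed signal was shifted by each array's 75th percentile, with no pseudocount and no quantile step. A probe was kept if, in any of the 4 siRNA groups, both arrays showed it well above background, which left 23703 of 50599, after 27 probes with a missing value were left out. Of the CDK inhibitors, neuronal genes and metallothioneins, 1 gene each (CDKN2B, NEFH and MT1G) passed through the siUHRF1 + TSA arrays alone and rose. The same held for 1 gene each of the cholesterol, glycolysis, intestinal differentiation and TIMP lists. Gene names came from RefSeq accessions for 28174 probes. A gene was represented by its probe of highest mean log2 signal.

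Tests used limma 3.58.1 in R 4.3.3 on 8 arrays, with the siRNA (control, siUHRF1-1, siUHRF1-2) as a block and Benjamini-Hochberg adjustment over all probes tested. The siRNA pairing comes from the labels and was checked: deviations of arrays with the same UHRF1 siRNA had a correlation of 0.466, and those of siCONT replicates with the same number, which are not blocked, 0.0796. Residual degrees of freedom were 3 and prior degrees of freedom 1.81. Where a gene was below background in 1 group, a lower limit of the fold was computed against the lowest signal among probes well above background. On simulated data, 152 of 200 probes given a log2 change of 1.5 were recovered (76%) among 160 calls for the TSA effect in UHRF1-depleted cells, and 110 (55%) among 117 calls for the difference.

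Named genes were UHRF1, ACTB, GAPDH, CDKN1A and HDAC1 to HDAC3, the 8 largest rises and 8 largest falls above background on all 4 depleted arrays, the 5 largest limits in each direction, the 5 most extreme differences in each direction and, per gene list, up to 4 called members of lowest p and 2 not called. Further members were named where a count was small or a member is central to its list, after their values were seen. The members of the comparison and the gene lists were chosen with earlier results of these data known. Alternatives concerned background correction, normalization, the filter, outlier spots, the block, the arrays in the fit, each array left out, the threshold and the methods' t-test. The array of the 5-aza-2'-deoxycytidine sample was not used. Some members of the lists are not reported here. Precision is limited by the number of arrays.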

Additional observations from a re-analysis of the deposited data

Results flagged for a closer look

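For 19 genes that met the naming rule the TSA effect differed between UHRF1-depleted and siCONT cells by the test of the difference itself, with adjusted p-values from limma between 0.00345 and 0.0364. The values that follow are differences on the log2 scale, depleted minus siCONT. Those measured on all 8 arrays were VCX2 (2.70), DHRS2 (1.46) and UHRF1 (-0.88). Germline antigen genes with a more positive effect in depleted cells were MAGEA9 (3.66), MAGEA10 (3.62), PAGE1 (3.28), MAGEC2 (2.96) and SSX1 (2.70). Genes of matrix, cell surface and cytoskeleton were THY1 (4.42), COL1A2 (4.0), S100A16 (3.85), NEFH (3.44), ARHGDIB (2.70) and TIMP2 (1.81), and stress genes were MT1G (3.32) and HSPA1A (3.14). The effect was more negative for GLIPR1 (-2.60), GDAP1L1 (-2.04) and GLB1L (-1.16). Apart from VCX2, DHRS2 and UHRF1, these genes were below background on at least 1 of the 8 arrays, so their differences depend on the values given to dim spots and are not measured sizes. Among them THY1, COL1A2, S100A16, NEFH, PAGE1, MAGEA10, MAGEC2, SSX1, MT1G and HSPA1A passed the filter through the siUHRF1 + TSA arrays alone. They therefore had to be higher there. Their p-values are not independent evidence of that direction. With normexp the difference was 0.58 for THY1, 0.37 for COL1A2, 0.24 for S100A16, 0.07 for NEFH and -0.14 for MAGEC2, and none of the 19 was called. The calls for DHRS2 and UHRF1 were kept in 5 of 19 alternatives each. That for VCX2 was kept in 14 (range 2.47 to 2.80) and lost with normexp, with no filter, without the block and without either siCONT array. Second probes of VCX2 and UHRF1 gave adjusted p-values of 0.0779 and 0.498 for the difference.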

How the results depend on the processing

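The siRNA block pairs arrays of the same siRNA, and without the replicate block 3668 probes were called in depleted cells, 2476 in siCONT cells and 90 for the difference, and with a block also for siCONT 5135, 3738 and 28. With only the arrays compared, 2078 probes were called in depleted cells, and with neither block nor siCONT arrays, chosen after seeing the data, 520. With normexp 819, 459 and 0 were called, 0 being by limma with 259 at an unadjusted p below 0.05. With no filter 3720, 2007 and 13 were called. With only probes above background on all 8 arrays 1 difference was called, VCX2, and 2120 at an unadjusted p below 0.05. Spike-in scaling gave 4032 calls in siCONT cells and the trended, robust prior 49 differences. At an unadjusted p below 0.05 there were 10138 calls in siCONT cells and 2489 differences, and with over 2-fold also 1433 in depleted cells, 860 in siCONT cells and 537 differences. The methods' t-test at their threshold gave 3347 calls in depleted cells, and with over 2-fold 792 and, in siCONT cells, 627. After Benjamini-Hochberg adjustment it gave 1 (the unannotated locus XLOC_012359) and 4345. With each array left out in turn, calls ranged from 4806 to 8732 in depleted cells, from 425 to 9270 in siCONT cells and from 21 to 174 for the difference. Such a fit takes the spread of the lone array from the remaining groups. Of 141 named genes called in depleted cells, 38 kept the call under every alternative run, 72 lost it with normexp and 26 without the block, and none changed direction. Signals near background limit the genes that were detected in 1 group alone, for which only lower limits hold.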
